A study of Mus musculus with 502 samples.

Results

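The 10 genes described here encode enzymes of glycolysis: Hk2, Gpi1, Aldoa, Tpi1, Gapdh, Pgk1, Pgam1, Eno1, Pkm and Ldha. They were chosen by symbol, all 10 had a row among the 46603 gene rows of the count table, and all 10 had reads. The cells were single Cd45+ immune cells, sorted as propidium iodide negative, from kidneys of wild type CD1 mice of about 3 weeks of age, an outbred stock. Kidneys were either dissociated fresh or first kept intact in the preservation solution HTS-FRS at 4 °C for 6 h or for 1, 2, 3 or 4 days, and no cell carried a transgene. The kidneys were not perfused, so blood leukocytes can be among the cells. By the study's methods the kidney tissue pooled for a timepoint came from 1 mouse, and no label names the animal. Preservation and the animal therefore cannot be told apart in a comparison of timepoints.

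Glycolysis is the cytosolic chain of reactions that splits glucose into pyruvate with a small gain of ATP, and lactate dehydrogenase then turns pyruvate into lactate when respiration does not take it up. Immune cells differ in how much they lean on it: neutrophils are known for a heavy reliance on glycolysis, activated lymphocytes raise it, and quiescent lymphocytes and many resident macrophages draw more on respiration. Several of its enzymes are textbook targets of the hypoxia-inducible factor HIF-1, which binds DNA at hypoxia response elements with the core ACGTG or GCGTG.

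Regions upstream of the members are shown for their matches to this core, which Tpi1 and Gpi1 lacked in the windows searched. RefSeq start windows on GRCm38.p6 were found for all 10 members, and the 250 bases before the start held ACGTG or GCGTG on either strand in 8 of the 10 genes (80%) in at least 1 window, against 41.55% of 27018 genes. By window, 12 of 16 member windows (75%) and 38.6% of 32841 windows of all genes held a match. ACGTG alone was in 6 of 10 members (60%) and in 18.5% of all genes. The last 150 bases before the start are printed 5′ to 3′ on the gene's strand for 3 members, with each match of either core, on either strand, in capitals. CACGTG holds ACGTG on both strands, so its matches overlap. Ldha lies on the plus strand (window chr7:46845654-46845803), Pgk1 on the plus strand (window chrX:106186950-106187099) and Hk2 on the minus strand (window chr6:82774455-82774604). Ldha had a second RefSeq window (chr7:46846832-46847081), which held no ACGTG and 1 GCGTG. The bases after that second window, unlike those after the printed one, were found in a GENCODE M21 transcript of Ldha.
Ldha: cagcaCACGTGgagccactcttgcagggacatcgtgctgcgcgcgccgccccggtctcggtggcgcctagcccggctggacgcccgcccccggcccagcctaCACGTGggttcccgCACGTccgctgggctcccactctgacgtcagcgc
Pgk1: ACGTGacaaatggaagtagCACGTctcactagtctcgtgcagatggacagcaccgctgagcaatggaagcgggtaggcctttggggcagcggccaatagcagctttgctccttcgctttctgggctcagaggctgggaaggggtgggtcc
Hk2: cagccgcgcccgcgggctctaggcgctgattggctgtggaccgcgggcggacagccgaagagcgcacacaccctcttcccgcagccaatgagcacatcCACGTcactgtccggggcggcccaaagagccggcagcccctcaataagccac
A match of letters is a description of the sequence and not a measured binding site.

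There were 502 cells. The title of each cell names what is read here as its library pool. Pool IM793 held 75 fresh cells, 76 cells at 6 h and 78 at day 2, and pool IM834 held 81 fresh cells, 75 at day 1, 82 at day 3 and 19 at day 4. Pool IM790 held 14 cells of day 4, and 2 more day 4 cells were in pool IM793. Timepoint and pool are therefore crossed only for the fresh cells and day 4, and the other timepoints were compared with the fresh cells of their own pool. A timepoint in a pool counts as 1 sample. No test was run and no p-value is given, since cells of 1 sample are not replicates. Values are raw reads without molecular identifiers, summed over cells and given as counts per 1000000 gene counts (CPM), with exact Poisson intervals for sums and exact Clopper-Pearson intervals for shares of cells, both at 95% and both covering counting error only. The median depth per sample ran from 417385 gene counts per cell at day 4 in pool IM834 to 1128170 at day 4 in pool IM790.

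Cells were also sorted into gates by at least 10 counts of 1 marker: Cd3e, a T cell receptor subunit (20.7% of the cells), Cd79a, a B cell receptor subunit (14.7%), C1qb, a complement gene of resident macrophages (24.7%), Csf1r, the receptor for macrophage colony stimulating factor, in cells without the other 4 markers (14.3%), and S100a8, a neutrophil granule gene (9.36%). C1qb and S100a8 cells may also carry Csf1r. A further 6 cells mixed these markers and 75 passed no gate. Marker lists were read in each gate, and each list counts the gate's own marker, which all its cells hold by rule. With it, 6 of 7 T cell markers were read in at least 25% of Cd3e cells and 5 of 5 B cell markers in Cd79a cells. Likewise 7 of 7 markers of C1q macrophages were read that widely in C1qb cells and 6 of 6 neutrophil markers in S100a8 cells. In Csf1r cells 4 of 8 markers of monocytes and dendritic cells were read that widely, and none of the T cell markers. The 4 were Csf1r itself, Ly6c2 (47.2%), Ccr2 (69.4%) and Plac8 (86.1%). The others, Flt3, Zbtb46, Xcr1 and Cd209a, were read in at most 8.33% of Csf1r cells, and the neutrophil marker Csf3r in 52.8%. S100a8 cells also had 3 of these 8 markers that widely: Plac8 (66%), Ly6c2 (46.8%) and Csf1r (38.3%). The T cell marker Cd3d was read in 31.9% of S100a8 cells, which had Cd3e in 2.13%. Kidney epithelial markers were read in a median of at most 2.03% of the cells of any gate. The gates were spread unevenly over the samples. Fresh pool IM793 held 29 Csf1r and 21 S100a8 cells but only 9 Cd3e cells and no Cd79a cell, day 2 of the same pool held 5 Csf1r cells, 1 S100a8 cell and 29 Cd79a cells, fresh pool IM834 held 43 Cd3e cells, and day 3 held 54 C1qb cells.

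Gapdh was read in the most cells and Hk2 in the fewest. Over the 502 cells a read was present in 83.5% of cells for Gapdh, 72.3% for Eno1, 71.9% for Pkm, 66.7% for Ldha, 65.7% for Aldoa and 57% for Gpi1. The shares were 33.5% for Tpi1, 29.5% for Pgam1, 28.3% for Pgk1 and 23.9% for Hk2. Levels of different genes were compared only as CPM per kilobase of exon. On that scale Ldha, Aldoa, Pkm and Gapdh held the places 1 to 4 and Hk2 the 10th in all 8 samples of at least 14 cells. In the gates the order was looser: these 4 genes led in 7 of the 15 sums of at least 10 cells, Ldha was 8th in Cd79a cells of day 2, and Hk2 was 10th in 13 of the 15.

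Together the 10 genes took 0.680% of the summed gene counts of the fresh cells in pool IM793, 0.593% at 6 h and 0.386% at day 2. In pool IM834 the share was 0.385% in fresh cells, 0.290% at day 1, 0.263% at day 3 and 0.251% after 4 days. The share was lower at every preserved timepoint than in the fresh cells of the same pool, and the fresh cells of the 2 pools differed from each other by as much as fresh cells and day 2 of pool IM793 did. The median cell followed the sums, with 0.562% of its counts on the 10 genes in fresh cells, 0.509% at 6 h and 0.358% at day 2 in pool IM793. The medians in pool IM834 were 0.379% in fresh cells, 0.251% at day 1, 0.243% at day 3 and 0.173% after 4 days. The 14 day 4 cells of pool IM790 did not share the low values, with 0.827% of the sum and a median cell at 0.553%.

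The gates differed in the summed level of the 10 genes, and S100a8 cells had the highest sums. Among the gates of pool IM793 C1qb cells had the lowest and lymphocytes lay between them, but in pool IM834 the Cd79a cells of day 1 were below the C1qb cells. In S100a8 cells the 10 genes summed to 9501 CPM in fresh cells and 8025 CPM at 6 h, both in pool IM793. In Csf1r cells of pool IM793 they summed to 6137 CPM fresh and 6590 CPM at 6 h, and in Csf1r cells of day 1 in pool IM834 to 2742 CPM. Pool IM793 thus placed S100a8 above Csf1r at both timepoints with at least 10 cells of each gate.
The sums in Cd3e cells were 5741 CPM at 6 h and 5363 CPM at day 2 in pool IM793, and 4452 CPM in fresh cells of pool IM834. In Cd79a cells they were 3863 CPM at day 2 in pool IM793, and 3041 CPM fresh and 2066 CPM at day 1 in pool IM834. In C1qb cells they were 1791 CPM at day 2 in pool IM793, and 2105 CPM at day 1, 2288 CPM at day 3 and 2219 CPM at day 4 in pool IM834. These sums rest on at least 10 cells each. In pool IM793 those of S100a8 and Csf1r cells are of fresh cells and 6 h and those of Cd79a and C1qb cells of day 2, so that gate and timepoint cannot be told apart between them. Smaller sums did not all keep the order: the 10 genes took 0.688% of the counts of 9 fresh Cd3e cells and 0.614% of those of the fresh Csf1r cells of that pool. Detected genes per cell did not follow this order, with a median of 1091 in S100a8 cells, 1839 in Cd3e cells, 1793 in Cd79a cells, 1850 in C1qb cells and 2242 in Csf1r cells. S100a8 cells thus spread their counts over the fewest genes, and the part of that in their high share was not tested.

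**Figure D1:**
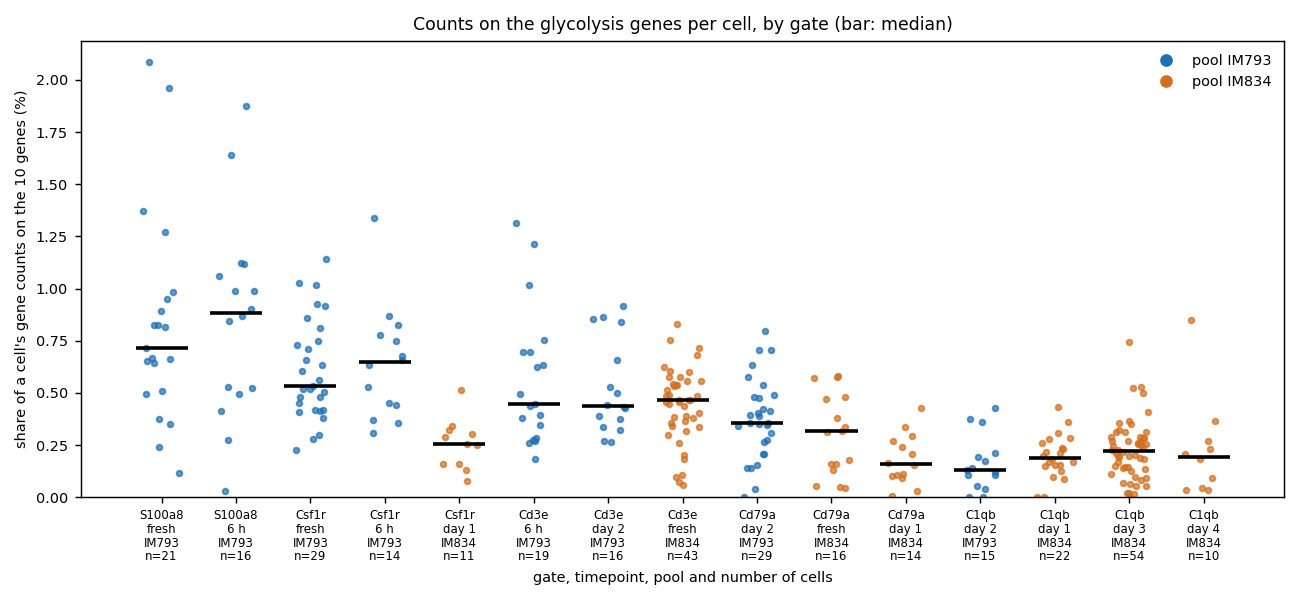
Share of each cell's gene counts (%, vertical axis) that fell on the 10 glycolysis genes, for each gate, timepoint and pool with at least 10 cells. Points are cells, bars are medians and colours are pools. Medians ran from 0.885% in S100a8 cells at 6 h to 0.128% in C1qb cells at day 2.

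The genes of the early steps are Hk2, hexokinase 2, which traps glucose as its phosphate, Gpi1, the isomerase that makes fructose phosphate, Aldoa, the aldolase that splits the sugar, and Tpi1, which interconverts the resulting triose phosphates. Hk2 (GRCm38 chr6:82725025-82774454) was sparse. Its summed level was 28.5 CPM fresh, 27.6 CPM at 6 h and 42.1 CPM at day 2 in pool IM793, and 7.92 CPM fresh, 14.4 CPM at day 1, 8.60 CPM at day 3 and 10.6 CPM at day 4 in pool IM834. Single cells carried much of it: 1 cell held 84.7% of the Hk2 counts of fresh pool IM834 and 45.8% of those of day 2. Over all cells the share with a read went in opposite directions in the 2 pools. In pool IM793 it was 45.3% in fresh cells, 18.4% at 6 h and 11.5% at day 2, and in pool IM834 it was 9.88% in fresh cells, 34.7% at day 1, 22% at day 3 and 10.5% after 4 days. Gates of pool IM834 differed: in C1qb cells the share was 50% of 8 fresh cells, 36.4% at day 1, 25.9% at day 3 and 0% at day 4. From fresh cells to day 1 it went from 25% of 4 cells to 45.5% in Csf1r cells and from 12.5% to 60% in cells that passed no gate. Fresh Cd3e cells, 43 in number, had 4.65%. The part of the gates in the shares over all cells was not tested.

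Gpi1 (chr7:34201330-34230336) was at 549 CPM fresh, 604 CPM at 6 h and 376 CPM at day 2 in pool IM793. In pool IM834 it was at 236.5 CPM fresh, 308 CPM at day 1, 382 CPM at day 3 and 150 CPM at day 4. It was the member with the largest fall between day 3 and day 4 of pool IM834 (log2 ratio -1.34), and 1 cell held 90.8% of its day 4 counts. Aldoa (chr7:126795234-126800751) was at 763 CPM fresh, 759 CPM at 6 h and 505 CPM at day 2 in pool IM793, and at 554 CPM fresh, 601 CPM at day 1, 315 CPM at day 3 and 351 CPM at day 4 in pool IM834. Its 2 sums in S100a8 cells, 1027 CPM fresh and 1382 CPM at 6 h, were above all 13 sums of at least 10 cells of the other gates. Tpi1 (chr6:124810586-124814296) was at 274 CPM fresh, 250 CPM at 6 h and 172.6 CPM at day 2 in pool IM793, and at 122.4, 130, 206.8 and 168.95 CPM in fresh cells and at days 1, 3 and 4 of pool IM834. In Cd3e cells Tpi1 was at 211.2 CPM at 6 h and at 0.688 CPM at day 2, with reads in 3 of the 16 day 2 cells.

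The genes of the later steps are Gapdh, which oxidises glyceraldehyde phosphate, Pgk1, the kinase of the first ATP-yielding step, Pgam1, the mutase that moves the phosphate, Eno1, enolase, and Pkm, pyruvate kinase. Gapdh (chr6:125161715-125166467) is often used as a reference gene, but its level was not even across these samples. It was at 1345 CPM fresh, 1230 CPM at 6 h and 585 CPM at day 2 in pool IM793. In pool IM834 it was at 422 CPM fresh, 301 CPM at day 1, 374 CPM at day 3 and 391 CPM at day 4, and in pool IM790 at 1179 CPM. Reads of Gapdh were present in 94.7% of fresh cells, 94.7% at 6 h and 67.9% at day 2 in pool IM793. In pool IM834 they were present in 90.1% of fresh cells, 81.3% at day 1, 79.3% at day 3 and 57.9% at day 4.

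Pkm (chr9:59656368-59679375) had the widest spread between gates of the well-read members. It was at 3514 CPM in fresh and 2644 CPM in 6 h S100a8 cells, against 232.4 to 1366 CPM in the 13 sums of other gates. In the 4 C1qb sums it was at 232.4 to 351 CPM. Over all cells of pool IM793 Pkm was at 1823 CPM fresh, 1363 CPM at 6 h and 792 CPM at day 2. In pool IM834 it was at 743 CPM fresh, 584 CPM at day 1, 443 CPM at day 3 and 331 CPM at day 4. Over all cells it was thus lower at each later timepoint in both pools. In Cd3e cells of pool IM793 it was not lower, at 1159 CPM at 6 h and 1193 CPM at day 2. The other gates with sums of at least 10 cells at several timepoints of a pool were lower at each later one. The S100a8 gate of pool IM793 held 21 fresh cells, 16 at 6 h and 1 at day 2. The part of the gates in the fall over all cells was not tested. Aldoa, Pgk1 and Pkm were the 3 of 10 members whose S100a8 sums were both above every other gate. All these S100a8 sums are of pool IM793, and smaller sums did not all follow: Aldoa was at 740 CPM in the 6 S100a8 cells of day 1 and at 1142 CPM in the 5 Csf1r cells of day 2, and Pgk1 at 0.342 CPM in those S100a8 cells. Over sums of at least 10 cells the same held for 4.05% of 8796 genes with a mean of at least 10 CPM over the sums. No member had its 4 C1qb sums below every other gate, as 0.534% of these genes did.

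Pgk1 (chrX:106187100-106203699) was at 306 CPM fresh, 164.2 CPM at 6 h and 123.3 CPM at day 2 in pool IM793, and at 81.8 CPM fresh, 47.8 CPM at day 1, 47.4 CPM at day 3 and 82.6 CPM at day 4 in pool IM834. It was read in 57.3% of fresh cells, 30.3% at 6 h and 19.2% at day 2 in pool IM793. No read of Pgk1 was counted in the 22 C1qb cells of day 1 or the 8 fresh C1qb cells of pool IM834, and 11.1% of the 54 C1qb cells of day 3 had one. Pgam1 (chr19:41911923-41918660) was at 112.6 CPM fresh, 119.5 CPM at 6 h and 43.4 CPM at day 2 in pool IM793, and at 24.3, 38.5, 34.3 and 34.2 CPM in fresh cells and at days 1, 3 and 4 of pool IM834. It was read in 52% of fresh cells, 36.8% at 6 h and 15.4% at day 2 in pool IM793. Both genes thus went from being read in over 50% of the fresh cells of pool IM793 to under 20% at day 2.

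Eno1 (chr4:150236721-150248879) was at 711 CPM fresh, 632 CPM at 6 h and 593 CPM at day 2 in pool IM793, the smallest fall to day 2 of the members that fell. In pool IM834 it was at 347 CPM fresh, 264.7 CPM at day 1, 190 CPM at day 3 and 337 CPM at day 4. Its value is uncertain because the near-identical Eno1b had 30219 counts in 342 cells, 17.4% of the 173777 counts of Eno1. Eno1b took 13% to 16.2% of the 2 genes' joint counts in every sample and gate of at least 10 cells, so joint values keep the order of the Eno1 values. The other named copies took at most 1.79% of their member's counts. Reads were counted without strand, and genes on the opposite strand overlap Hk2, Gpi1, Aldoa, Tpi1 and Gapdh, and a gene on the same strand overlaps Pkm.

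**Figure D2:**
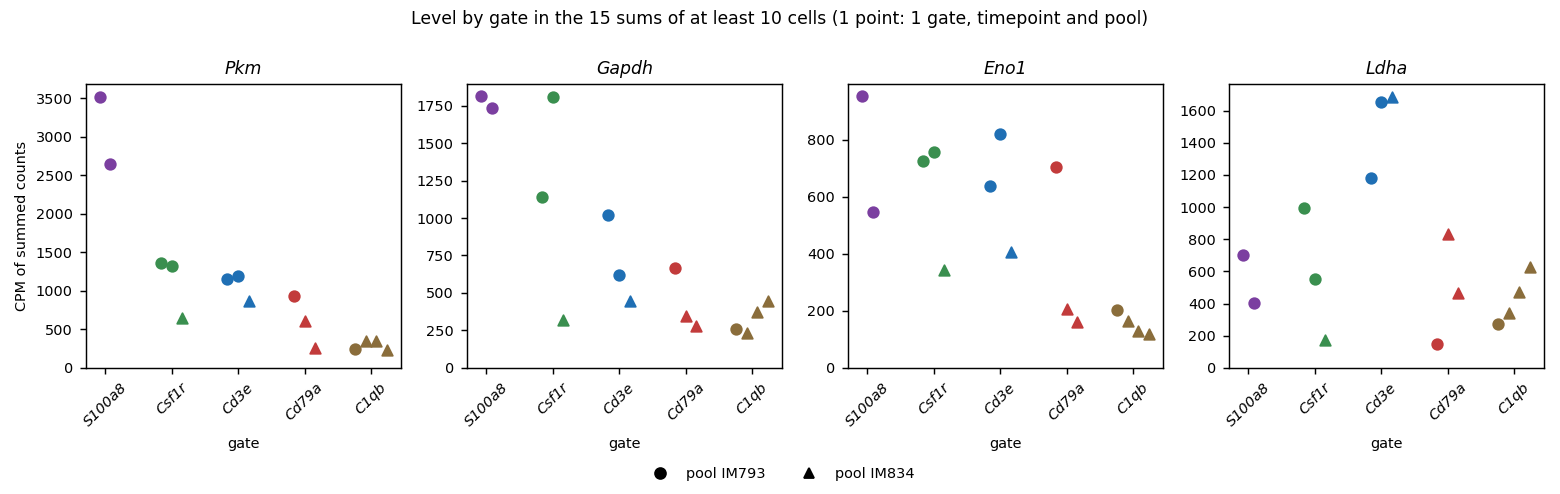
CPM of summed counts (vertical axis, linear from 0) of Pkm, Gapdh, Eno1 and Ldha in the 15 sums of at least 10 cells, by gate. Circles are pool IM793 and triangles are pool IM834. Pkm peaked in S100a8 cells (2644 and 3514 CPM) and Ldha in Cd3e cells (1180 to 1687 CPM).

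Ldha (chr7:46841475-46855627), which encodes the lactate dehydrogenase subunit that favours lactate formation, had an order of gates of its own. In Cd3e cells it was at 1180 CPM at 6 h and 1652 CPM at day 2 in pool IM793, and at 1687 CPM in fresh cells of pool IM834. The 12 sums of other gates ran from 145.8 CPM in Cd79a cells of day 2 to 992 CPM in fresh Csf1r cells of pool IM793. Among these sums of at least 10 cells, Ldha was the only member with every Cd3e sum above every other gate, which 2.69% of the 8796 genes also were. The 7 Cd3e cells of day 1 were lower, at 796 CPM, and cells that passed no gate were at up to 1247 CPM in sums of that size. It was read in 93% of the fresh Cd3e cells of pool IM834, in 73.7% of those of 6 h and in 81.2% of those of day 2, and in 79.3% of fresh Csf1r cells. Of the day 2 Cd79a cells 31% had a read, against 75% of fresh and 42.9% of day 1 Cd79a cells of pool IM834. Among the S100a8 cells, which led for Pkm, 52.4% of fresh cells and 31.2% of 6 h cells had a read of Ldha.

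Across all cells Ldha was at 886 CPM fresh, 783 CPM at 6 h and 627 CPM at day 2 in pool IM793, and at 1310 CPM fresh, 608 CPM at day 1, 632 CPM at day 3 and 654 CPM at day 4 in pool IM834. It was the only member that was higher in the fresh cells of pool IM834, where 43 of 81 cells were in the Cd3e gate, than in those of pool IM793, where 9 of 75 were. The fall from fresh to day 1 in pool IM834 went with a drop from 43 to 7 Cd3e cells, and the part of that drop in it was not tested.

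**Figure D3:**
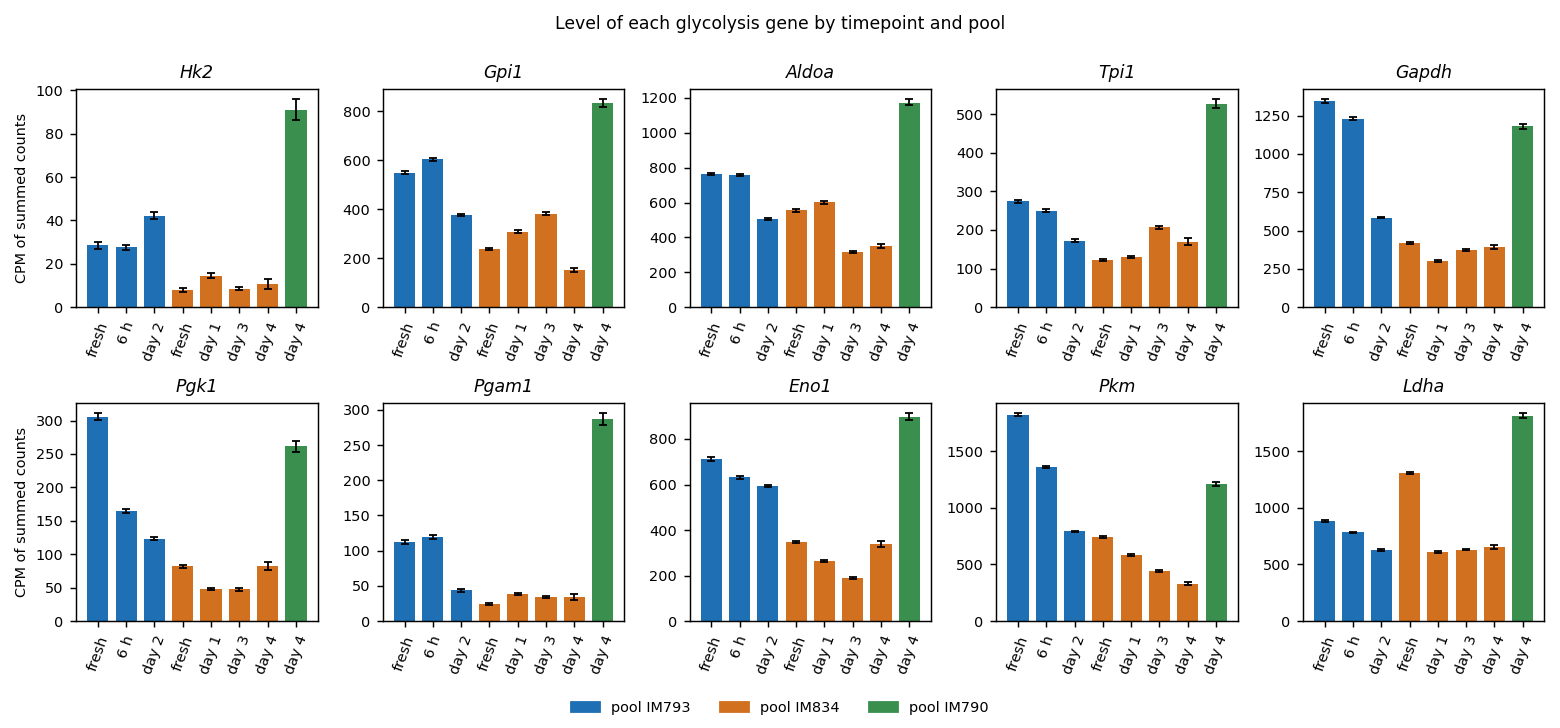
CPM of summed counts (vertical axes, linear from 0) of each of the 10 genes in the 8 samples with at least 14 cells, coloured by pool. Error bars are exact 95% Poisson intervals, which cover counting error only. Gapdh fell from 1345 to 585 CPM between fresh cells and day 2 of pool IM793, and Ldha was highest in pool IM790 at day 4 (1815 CPM) and in fresh pool IM834 (1310 CPM).

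Preserved and fresh cells were then compared as log2 ratios of summed CPM, with 1 CPM added, over genes with a mean of at least 10 CPM in the pair. After 6 h in pool IM793 no member changed 2-fold, where 21.6% of 8664 genes were at least 2-fold higher and 13.5% at least 2-fold lower. The median of the members was -0.13, against 0.18 over all genes, and Pgk1 (-0.89) lay farthest from 0. Pgk1 passed 2-fold under TMM (-1.06) and size factors (-1.10), 2 other ways of scaling the totals. In means of log2(rpm + 1) over cells 4 of 10 members were 2-fold lower, where 13.2% of 8576 genes were as much lower and 1.67% as much higher. After 2 days in pool IM793 the median was -0.63, against 0.23 over all genes. Gapdh (-1.20), Pgk1 (-1.30), Pgam1 (-1.35) and Pkm (-1.20) were at least 2-fold lower, and Eno1 (-0.26) was not. That is 4 of 10 members where 18.9% of 8705 genes were as much lower, and none of 10 was 2-fold higher, where 27.5% of genes were. None of these 4 calls held against all fresh cells of both pools, where the median was -0.51 and Hk2 alone was past 2-fold, as higher, with 19% of 8867 genes 2-fold lower and 19.4% higher. Only Hk2 was higher at day 2 (0.55), and without the 1 cell with the most Hk2 reads in each sum its ratio was -0.01. The share of cells in the Csf1r and S100a8 gates moved with the day 2 result, as did the summed neutrophil markers (7778 CPM fresh and 339 CPM at day 2), and as did detected genes per cell at 100000 counts, which had a median of 2214.5 in fresh cells and 1288.5 at day 2, and their part in it was not tested. With means of log2(rpm + 1) over cells, which weight detection, the day 2 median was -2.88, against -0.44 over all genes, and all 10 members were 2-fold lower, where 25.6% of 8696 genes were as much lower and 3.1% as much higher.

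In pool IM834 the members moved apart at day 1, and most of those tested were lower at day 3 (6 lower and 3 higher). At day 1 their median was -0.13 and that of all genes -0.07, and 5 members were higher and 5 lower. Ldha (-1.11) alone was past 2-fold, where 21% of 8755 genes were as much lower and 20.8% as much higher. At day 3 the median of the 9 members that passed the filter, all but Hk2, was -0.74, against -0.08 over all genes. Ldha (-1.05) alone was again past 2-fold, where 23.1% of 8698 genes were as much lower and 22% as much higher, and Tpi1 (0.75) and Gpi1 (0.69) were higher. From fresh cells to day 3 of pool IM834 the C1qb gate went from 8 to 54 cells and the Cd3e gate from 43 to 7, and the share of cells with a read of Ptprc, the gene of Cd45, from 97.5% to 80.5%. Their part in the day 3 values was not tested. Ldha at day 3 was at -0.97 under both other scalings. Against all fresh cells of both pools 4 of 10 members were 2-fold lower at day 1, where 17.1% of 8822 genes were as much lower and 16.8% as much higher. On the same footing 7 of 10 were lower at day 3, where 20.8% of 8793 genes were as much lower and 19% as much higher.

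At day 4 in pool IM834 the median was -0.11 against fresh cells, where all genes had a median of -1.01. Of the 9 members tested Pkm (-1.17) was 2-fold lower, where 50.2% of 7836 genes were as much lower and 22.3% as much higher. Against day 3 the median was 0.05, with -0.84 over all genes, and Gpi1 alone was 2-fold lower, where 48.2% of 7666 genes were as much lower and 20.4% as much higher. Under the filter of 10 CPM the members' median thus lay above that of all genes in these 19 cells. Of these cells 42.1% had a read of Ptprc. With a minimum mean of 100 CPM the members' median against fresh cells was -0.65, and at most 21.5% of genes were 2-fold lower in any of the 13 comparisons. The share of genes called lower thus depended on the filter for low counts. Single cells carried much of each level. Without the cell with the most reads of each gene in each sum, the members' median against fresh cells was -1.17 and that of all genes -4.53, and 5 of 9 members were 2-fold lower, where 73.2% of 5743 genes were as much lower and 7.85% as much higher.

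In ratios of sums over all cells, the members' median shifted most between the fresh cells of the 2 pools, with no preservation involved. In means of log2(rpm + 1) it was at -2.05 there, less far from 0 than at day 2. Fresh pool IM834 was at least 2-fold below fresh pool IM793 for 8 of 10 members, all but Aldoa (-0.46) and Ldha (0.56), where 19.7% of 8665 genes were as much lower and 28% as much higher. The median was -1.25, against 0.25 over all genes, with Pgam1 (-2.16) and Pgk1 (-1.89) lowest. Within the Cd3e gate Gapdh was at 1486 CPM in 9 fresh cells of pool IM793 and at 447 CPM in 43 of pool IM834, and the 10 genes took 0.688% and 0.445% of the summed counts. The gates moved with this result: fresh pool IM793 held 21 S100a8 and 29 Csf1r cells and fresh pool IM834 held 0 and 4, and the summed neutrophil markers were at 7778 and 1.81 CPM. The median share of 18S counts was 5.79% and 9.84%, and the median of detected genes at 100000 counts 2214.5 and 1557. The part of these in the difference over all cells was not tested. Pool and animal cannot be told apart, since no label names an animal.

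**Figure D4:**
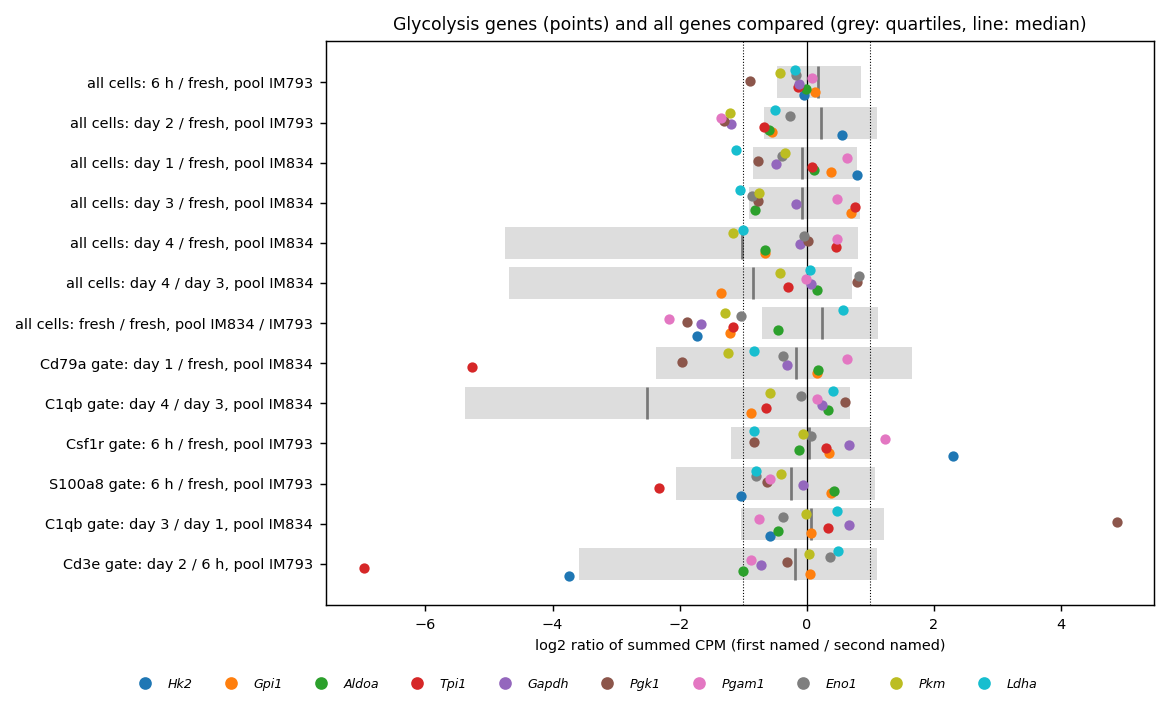
Log2 ratios of summed CPM (horizontal axis) of the 10 genes, as coloured points, in each comparison, with the quartiles (grey bars) and median (grey line) of all genes compared. Dotted lines mark a 2-fold difference. The members' median lay left of the median of all genes at day 2 against fresh cells of pool IM793 (-0.63) and between the 2 sets of fresh cells (-1.25). Hk2 (0.55) lay right of it in the first and Ldha (0.56) in the second.

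**Figure D5:**
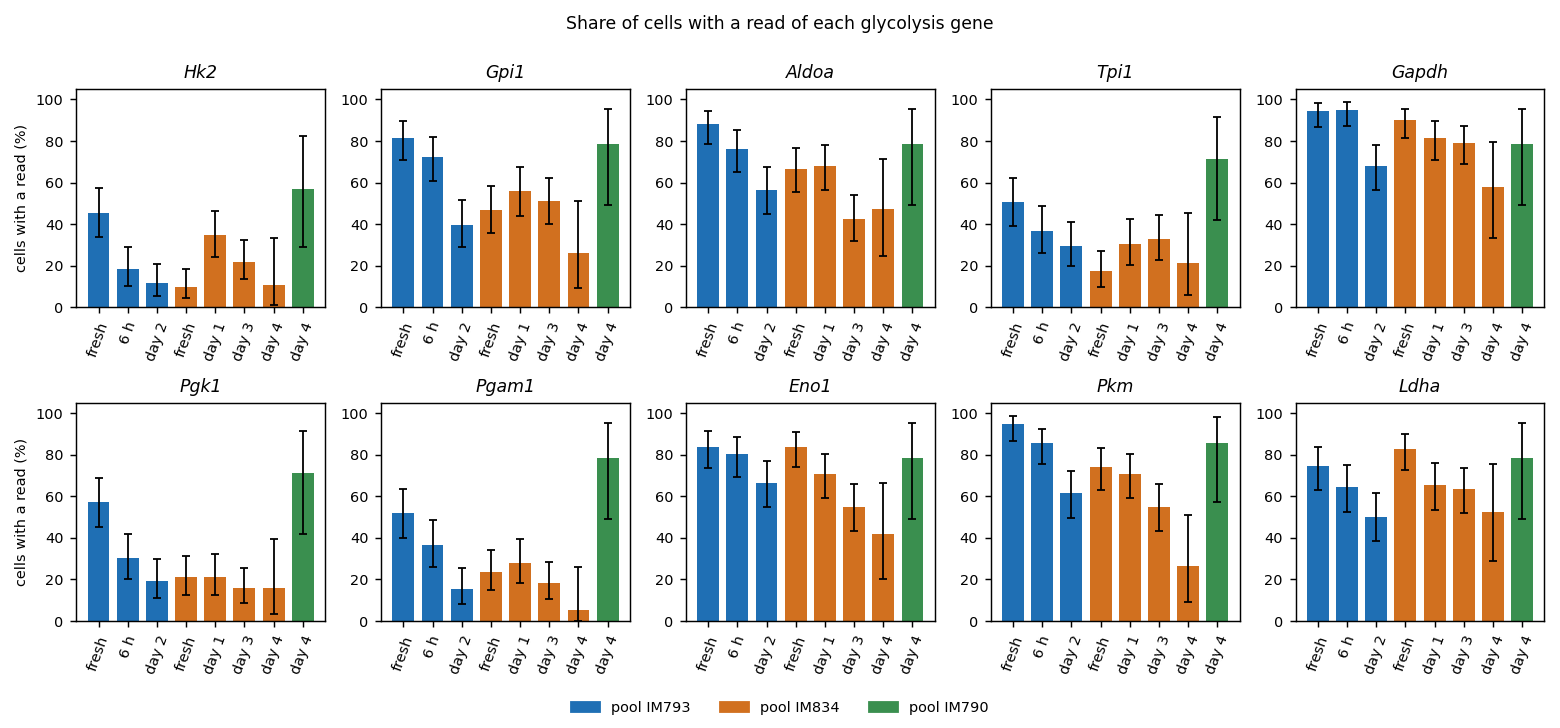
Share of cells with a read (%, vertical axis) of each gene in the same 8 samples, with exact 95% Clopper-Pearson intervals. In pool IM793 the share fell from fresh cells to day 2 for all 10 genes, for Pgk1 from 57.3% to 19.2% and for Gapdh from 94.7% to 67.9%. Detected genes per cell, with cells thinned to equal counts, also fell between these samples, from a median of 2214.5 to 1288.5. The part of that fall in the shares was not tested, and the share of all genes with such a fall is not given.

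Timepoints were also compared within single gates. In Cd79a cells of pool IM834 the median of the 9 members tested at day 1 was -0.37 against fresh cells, with -0.17 over all genes, and Tpi1, Pgk1 and Pkm were 2-fold lower, where 36.1% of 6734 genes were as much lower and 31.8% as much higher. Only 1 of the 14 day 1 cells had a read of Tpi1 and 1 a read of Pgk1. Pkm was at 614 CPM fresh and had a log2 ratio of -1.24. In Cd3e cells of pool IM793 the median between 6 h and day 2 was -0.52, with -0.19 over all genes, and Hk2, Aldoa (-1.0) and Tpi1 were 2-fold lower, where 37.9% of 7101 genes were as much lower and 26.4% as much higher, while Eno1 (0.36), Pkm (0.04) and Ldha (0.48) were not lower.

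The summed level in C1qb cells of pool IM834 stayed within 2105 to 2288 CPM over days 1, 3 and 4. Between day 1 and day 3 of pool IM834 the median was 0.03, with 0.07 over all genes, and 5 of 10 members were higher. Pgk1 alone was past 2-fold, from no count at day 1 to 28.4 CPM at day 3, where 28.9% of 7979 genes were at least 2-fold higher and 25.6% lower. Between day 3 and day 4 the median of 9 members was 0.16 and none was past 2-fold, where 56.6% of 6816 genes were at least 2-fold lower and 21.1% higher and the median of all genes was -2.51. Those day 4 sums came from 10 cells, and without the cell with the most reads of each gene the members' median was -2.54 and that of all genes -4.97.

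In Csf1r cells of pool IM793 the median at 6 h was 0.18, with 0.04 over all genes. Hk2 (2.30) and Pgam1 (1.23) were at least 2-fold higher, where 25.2% of 7354 genes were as much higher and 27.2% as much lower. In S100a8 cells of the same timepoints the median was -0.60, with -0.24 over all genes, and Hk2 (-1.03) and Tpi1 (-2.32) were lower, where 36.3% of 5834 genes were as much lower and 26.2% as much higher. All Hk2 counts of the 6 h S100a8 cells came from 1 cell.

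Genes around the pathway were summarised by lists. At day 2 in pool IM793, 27.5% of all genes were at least 2-fold higher and 18.9% at least 2-fold lower, which are the shares to set beside the day 2 counts of the lists. Of 14 other glycolytic isozymes, 7 passed the filter at day 2 in pool IM793, with 1 at least 2-fold higher, 2 lower and a median of -0.70. Hk3, the hexokinase of myeloid cells, was at 307 CPM in fresh cells, 105.5 CPM at 6 h and 29.1 CPM at day 2, and was read in 48%, 13.2% and 2.56% of cells. Of the 6 glucose and lactate transporters all passed there, with 1 higher and 3 lower and a median of -1.29, against 0.23 over all genes. Slc16a3, the exporter of lactate, was at 423 CPM fresh, 100.8 CPM at 6 h and 1.85 CPM at day 2 in pool IM793. In pool IM834 it was at 2.09 CPM in fresh cells, 160 CPM at day 1 and 0 at day 3. Slc2a1, the widespread glucose transporter, was at 190 CPM fresh, 166.7 CPM at 6 h and 96.8 CPM at day 2 in pool IM793.

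Of the 11 regulators 8 passed at day 2, with 3 higher, 1 lower and a median of 0.07, against 0.23 over all genes. Txnip, which curbs glucose uptake, was read in 45.3% of fresh cells, 72.4% at 6 h and 73.1% at day 2 in pool IM793, at 461, 822 and 1254 CPM. In pool IM834 it was read in 46.9% of fresh cells, 69.3% at day 1 and 68.3% at day 3, at 719, 946 and 1014 CPM. Txnip was thus read in more preserved than fresh cells in both pools up to day 3, the opposite direction to the summed share of the 10 enzymes. Pfkfb3, which makes an activator of glycolysis, was at 77.5 CPM fresh and 16.5 CPM at day 2 in pool IM793, and at 0.463 CPM fresh and 122.8 CPM at day 1 in pool IM834. The summed neutrophil markers moved with Hk3, Slc16a3 and Pfkfb3, at 7778 CPM fresh, 6724 CPM at 6 h and 339 CPM at day 2 in pool IM793, and at 1.81 CPM fresh and 2135 CPM at day 1 in pool IM834, and their part in these values was not tested. Of 13 other hypoxia-response genes 10 passed at day 2 with a median of 0.65, of which 3 were 2-fold higher and 1 lower. At day 1 in pool IM834 8 passed with a median of 0.58, of which 4 were higher and none lower, where 20.8% of all genes were as much higher and 21% as much lower.

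The mean centred level of the 10 members was used to find the genes with the most similar pattern over the 15 gate sums of at least 10 cells, which share pools and depth. Among 8796 genes the 5 nearest that are not members were Actb (Pearson r = 0.89), Vasp (0.88), Gng5 (0.88), Psmb8 (0.86) and Fanca (0.86). Of the members, which are part of the mean, Gapdh (0.94) and Pkm (0.87) were nearest and Ldha (0.18) was farthest.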

How the data were processed

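Full-length cDNA of single cells followed a modified SmartSeq2 procedure without molecular identifiers. The authors trimmed reads to 75 bp (fastx_trimmer), removed duplicates (picard), aligned to GRCm38 (STAR) and counted per gene with HTSeq in intersection-strict mode and without strand. Cells under 1000 reads were dropped. Tool versions were not given in the sources used here. Deposited values are raw counts for 502 cells. Of 46700 rows, 96 ERCC rows (0.000185% of all counts) and 1 vector row (0.139%) were left out. Members, lists and comparisons were chosen with earlier results of these data known. Named genes are the 10 members, the fixed lists, the 5 genes of most similar pattern and markers.

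Counts were summed per timepoint, pool and gate (at least 10 counts of the marker), and compared as log2((CPM + 1)/(CPM + 1)) where the mean CPM was at least 10, with 2-fold as the call. The ratio was tested on simulated data. Gene coordinates and exon lengths came from GENCODE M21. A comparison of C1qb cells (day 3 with day 1), one of Cd3e cells (day 2 with 6 h) and the pairs of gates were added after the data were seen. Alternatives covered scaling (TMM of edgeR 4.0.16, size factors of DESeq2 1.42.0), totals, thinning to 100000 counts (8 cells shallower), filters, prior, gate limits and single cells. Doublets were not called. Python 3.11.15, numpy 2.4.6, scipy 1.17.1, pandas 2.3.3 and R 4.3.3 were used.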

Additional observations from a re-analysis of the deposited data

Results flagged for a closer look

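Of the 10 members 6 differed in sign between the Csf1r and S100a8 gates at 6 h against fresh cells of pool IM793, and they are given here for that reason. The same was true of 46.4% of the 5020 genes compared in both gates. The log2 ratio of Hk2 was 2.301 in Csf1r cells and -1.028 in S100a8 cells, that of Tpi1 was 0.3065 and -2.318, and that of Pgam1 was 1.235 and -0.5721. The ratios of Gapdh were 0.6649 and -0.06621 and those of Eno1 0.06247 and -0.8005. Aldoa went the other way, with -0.1147 in Csf1r and 0.4277 in S100a8 cells. Each side is 1 sample, and the differences were not tested. A single cell held 57.6% of the Pgam1 counts and 35.8% of the Hk2 counts of the 6 h Csf1r cells, and a single cell held all Hk2 counts of the 6 h S100a8 cells. The share of cells with a read of Hk2 was lower at 6 h in both gates, 55.2% and 35.7% in Csf1r cells and 33.3% and 6.25% in S100a8 cells.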

How the results depend on the processing

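Each timepoint and pool is 1 sample, so no value has a replicate error, and a value was held to have moved when it changed by over 0.5 (log2), 1.5 times (counts of genes) or the quartile range of the cells (shares). No test was run, and so no paired analysis was made. TMM shifted the members' median by -0.25 to 0.11 and size factors by -0.23 to 0.21 over the comparisons. The members' median became positive at day 4 against fresh cells under TMM (0.0033) and size factors (0.098). Under means of log2(rpm + 1) the medians against fresh cells were -0.92 after 6 h, -2.88 for day 2, -1.28 for day 3 and -2.78 for day 4, and others were -0.99 at day 4 against day 3, -2.05 between fresh cells, -1.38 in Cd79a cells, -0.44 in C1qb cells (day 4 against day 3) and -1.31 in Cd3e cells. Members past 2-fold against fresh cells then numbered 10 at day 2, 6 each at days 3 and 4, and 4 each at 6 h and day 1, with 4 at day 4 against day 3, 5 in Cd79a cells, 3 and 2 in C1qb cells at day 4 and day 3, 5 in S100a8 cells and 6 in Cd3e cells. On that scale 1.51% to 15.6% of all genes were 2-fold higher and 6.16% to 27.7% lower over the 13 comparisons. The log2 ratio of Pgk1 between S100a8 and Csf1r cells at 6 h, 1.15 in sums, reversed to -0.24. Against all fresh cells the medians were -0.85 at day 1 and -0.97 at day 4, with 4 and 5 members past 2-fold, 7 at day 3 and 1 at day 2. Against these cells 13.6% to 31.8% of all genes were 2-fold higher and 13.9% to 49.3% lower over 8 comparisons. Without the cell with the most reads of a gene, the medians were -1.17 at day 4 against fresh cells and -2.54 in C1qb cells at day 4, with 5 members past 2-fold in each, 4 at day 4 against day 3 and 0 in C1qb cells at day 3. Without that cell 6.14% to 36.6% of all genes were 2-fold higher and 16.2% to 78.2% lower over the 13 comparisons. Thinning gave 2 members past 2-fold at day 4 against fresh cells, 3 against day 3, 2 in C1qb cells at day 4 and 1 in S100a8 cells, and the mean of rpm gave 2, 3, 1 and 1 for these and 2 at day 3. With thinning 20% to 31.8% of all genes were 2-fold higher and 13.3% to 55.4% lower over the 13 comparisons. With the mean of rpm 19.7% to 31.4% were higher and 13.1% to 55.3% lower. TMM and size factors both gave 1 at 6 h, 0 at day 3 and 1 each in C1qb cells at day 4 and S100a8 cells, and size factors gave 0 at day 4 against fresh cells. Under TMM 17.6% to 32.7% of all genes were 2-fold higher and 16.7% to 59.5% lower over the 13 comparisons. Under size factors 16.8% to 33% were higher and 17.3% to 55% lower. A minimum mean of 100 CPM gave a median of -0.65 at day 4 against fresh cells, 1 member each in Csf1r and S100a8 cells and 0 in C1qb cells at day 3. With that minimum 8.49% to 38.4% of all genes were 2-fold higher and 8.44% to 21.5% lower over the 13 comparisons. A minimum of 50 counts gave 0 in C1qb cells at day 3 and 1 in Cd3e cells, no filter gave 1 in C1qb cells at day 4, and a prior of 10 CPM gave 1 in S100a8 cells. Of all genes 19.2% to 39.4% were 2-fold higher and 14% to 24.6% lower with 50 counts over the 13 comparisons. These shares were 12.8% to 27.7% and 15.5% to 53.1% with no filter, and 15.4% to 29.7% and 9.53% to 55.5% with the prior of 10 CPM. Without 18S and mitochondrial counts the median share of fresh Cd3e cells of pool IM834 was 0.554%. The causes were not tested.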

Other observations

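The 2 day 4 cells of pool IM793 entered no comparison. Their summed levels were 789 CPM for Gapdh, 720 CPM for Ldha, 523 CPM for Pkm and 417 CPM for Pgk1.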
